A study of Mus musculus with 15 samples.

Results

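The mitochondrial ribosomal protein genes were taken by symbol, as every gene whose name is Mrpl or Mrps followed by a number and, for some, a letter from a to c. This gave 78 of the 26263 named genes, 49 with a large-subunit symbol (Mrpl) and 29 with a small-subunit symbol (Mrps). Their RNA was counted in 15 libraries of cultured mouse neural stem and progenitor cells, isolated from the dorsal telencephalon at embryonic day 12.5 and expanded as neurospheres with EGF and FGF. WT_B6 stands for wild-type cells on C57BL/6 (n = 3, numbered 1, 2 and 4) and KO_B6 for Kat6b-/- cells on the same background (n = 4). WT_FvB stands for wild-type cells on a mixed FVBxBALB/c background (n = 2), and Tg_FvB for Tg(Kat6b) cells on that mixed background (n = 6), which by the series design overexpress Kat6b mRNA and come from mice that did not survive on an inbred background. Labels give each library a litter and an embryo number, and the promoter that drives the transgene is not given in what was used here. Kat6b encodes a histone lysine acetyltransferase. The comparisons were KO_B6 against WT_B6, Tg_FvB against WT_FvB and WT_FvB against WT_B6. The first and the last share their WT_B6 libraries, and the middle and the last share their WT_FvB libraries.

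Mitochondria carry their own ribosome, which makes only the few proteins encoded by mitochondrial DNA, all of them core parts of the respiratory chain and the ATP synthase. Its RNAs come from the mitochondrial genome, whereas every one of its proteins is encoded in the nucleus, translated in the cytosol and imported. The small subunit decodes the mRNA, and the large subunit joins the amino acids and passes the chain into the inner membrane. Some proteins have bacterial counterparts, and others are found only in mitochondria. In neural stem cells, the move from proliferation to differentiation is known to go with a change in the use of oxidative metabolism.

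Several libraries of a group were nearly alike or were labelled in ways that disagree. In 8 pairs within groups, the variation between the paired libraries (biological coefficient of variation) was 0.0172 to 0.050, against 0.112 to 0.253 in the other within-group pairs. The close pairs were all 3 WT_B6 libraries with each other, although their labels give 3 litters, KO_B6 replicates 2 and 3, the WT_FvB pair, and Tg_FvB replicates 1, 2 and 3. They still differed beyond counting noise (chi-square per degree of freedom 2.23 to 13.0), so each was kept as a library. The p-values therefore measure the spread between these libraries, which may be in part technical, and the counts of calls are also given with the close libraries summed. Summing left 1 library in WT_B6 and 1 in WT_FvB, with 5 residual degrees of freedom over all groups. A lack of calls after summing therefore says little about the genes listed. In that setting edgeR called 0 genes of each list described here, for KO_B6 against WT_B6, Tg_FvB against WT_FvB and WT_FvB against WT_B6; at an unadjusted p under 0.05 there were, in KO_B6, 4 of 27 assembly factors, 4 of 15 translation factors, 6 of 20 tRNA-charging enzymes and 5 of 12 biogenesis regulators. Tg_FvB libraries are titled as knockouts but have the transgene in their genotype field, and inside the files of Tg_FvB replicates 5 and 6 the column name is that of a wild type. Library totals ran from 12336303 to 62819028 counts, and every KO_B6 library was deeper than every WT_B6 library.

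Kat6b itself was measured at 85.1, 84.1 and 83.5 CPM (counts scaled to a common library size) in WT_B6 and at 61.0, 64.1, 66.1 and 62.3 CPM in KO_B6. The log2 fold change was -0.41 ± 0.17 (SE), with an edgeR adjusted p of 0.0571. Which exons the knockout allele lacks was not analysed here, so this gene-wide count does not show how much intact transcript remained. In WT_FvB it stood at 54.4 and 51.9 CPM, and in Tg_FvB at 140 to 289 CPM with a median of 266, a log2 fold change of 2.19 ± 0.21 (adjusted p 0.000238). The lowest Tg_FvB library was replicate 5, which was still above both WT_FvB libraries.

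Members were expressed at moderate and fairly even levels. Per kilobase of gene length, the 77 members that passed the filter on low counts had a median of 38.8 CPM per kilobase over all 15 libraries, and the large-subunit median of 39.4 was close to the small-subunit median of 35.5. The highest per kilobase were Mrpl42 at 131, a protein found only in mitochondrial ribosomes, Mrpl52 at 101 and Mrps6 at 101. In CPM, Mrpl42 ran from 70.8 to 106 over the libraries, Mrpl52 from 35.5 to 51.7 and Mrps6 from 59.9 to 103, and all 3 had their lowest group mean in WT_B6. The lowest that passed were Mrpl1 at 7.10 (26.4 to 32.5 CPM) and Mrps25 at 7.72 (36.8 to 54.4 CPM). These orders rest on the deposited gene lengths (407 to 6712 bases), which add up all annotated exons and can exceed the transcript in use. The member left out was Mrpl36, a large-subunit protein with a bacterial counterpart, which had 0 to 8 counts per library. It had 0 counts in KO_B6 replicate 2 and Tg_FvB replicate 3, where 3 counts would have been 0.0532 and 0.132 CPM. The gene lies at chr13:73328503-73332178 (+) and its exons overlap those of Ndufs6 on the other strand.

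**Figure D1:**
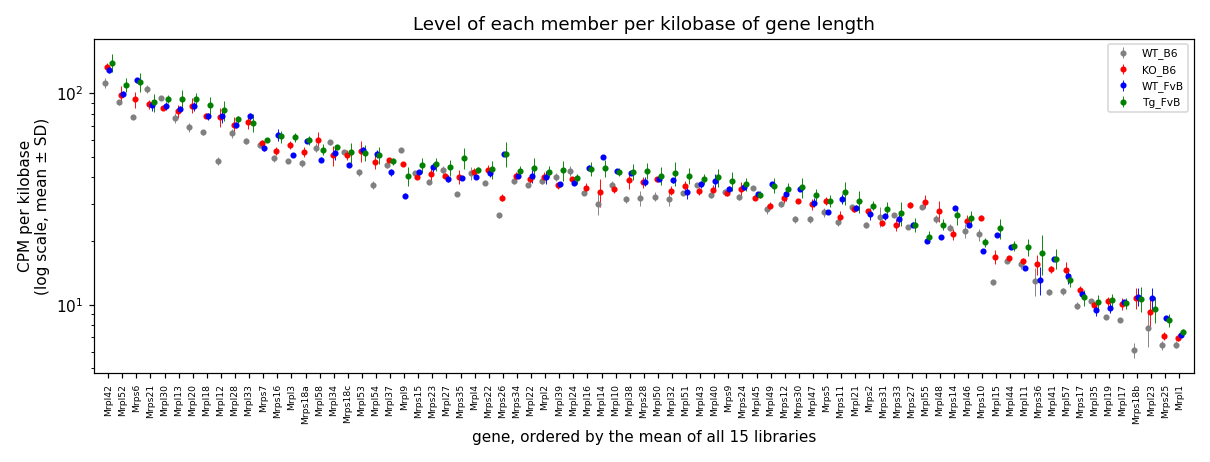
Level of each of the 77 tested members in CPM per kilobase (log axis; points are group means, bars are SD over libraries), ordered by the mean of all 15 libraries. Mrpl42 is at the top at 131 on average, most members lie around the median of 38.8, and the group means of single genes such as Mrps18b, Mrps26 and Mrpl9 lie apart.

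In the Kat6b-/- cells, more mitochondrial ribosomal protein genes were higher than lower, and the changes were small. Of the 77 tested members, 29 rose (37.7%) and 5 fell (6.49%), while of all 15261 genes tested 24.8% were called higher and 20.9% lower (45.8% in either direction). The share of members called in either direction, 44.2%, was thus near that of all genes, and higher calls made up more of it. A call is an adjusted p under 0.05 in edgeR's quasi-likelihood test, adjusted over all genes tested. The median log2 fold change of members was 0.12 (all genes 0.02), and 59 of 77 lay above 0 (76.6%, against 52.0% of all genes). Changes stayed within 1.2-fold for 61 members (79.2%), against 45.5% of all genes. Levels are per RNA of the whole culture, so fewer cells of a type and less RNA per cell cannot be told apart.

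**Figure D2:**
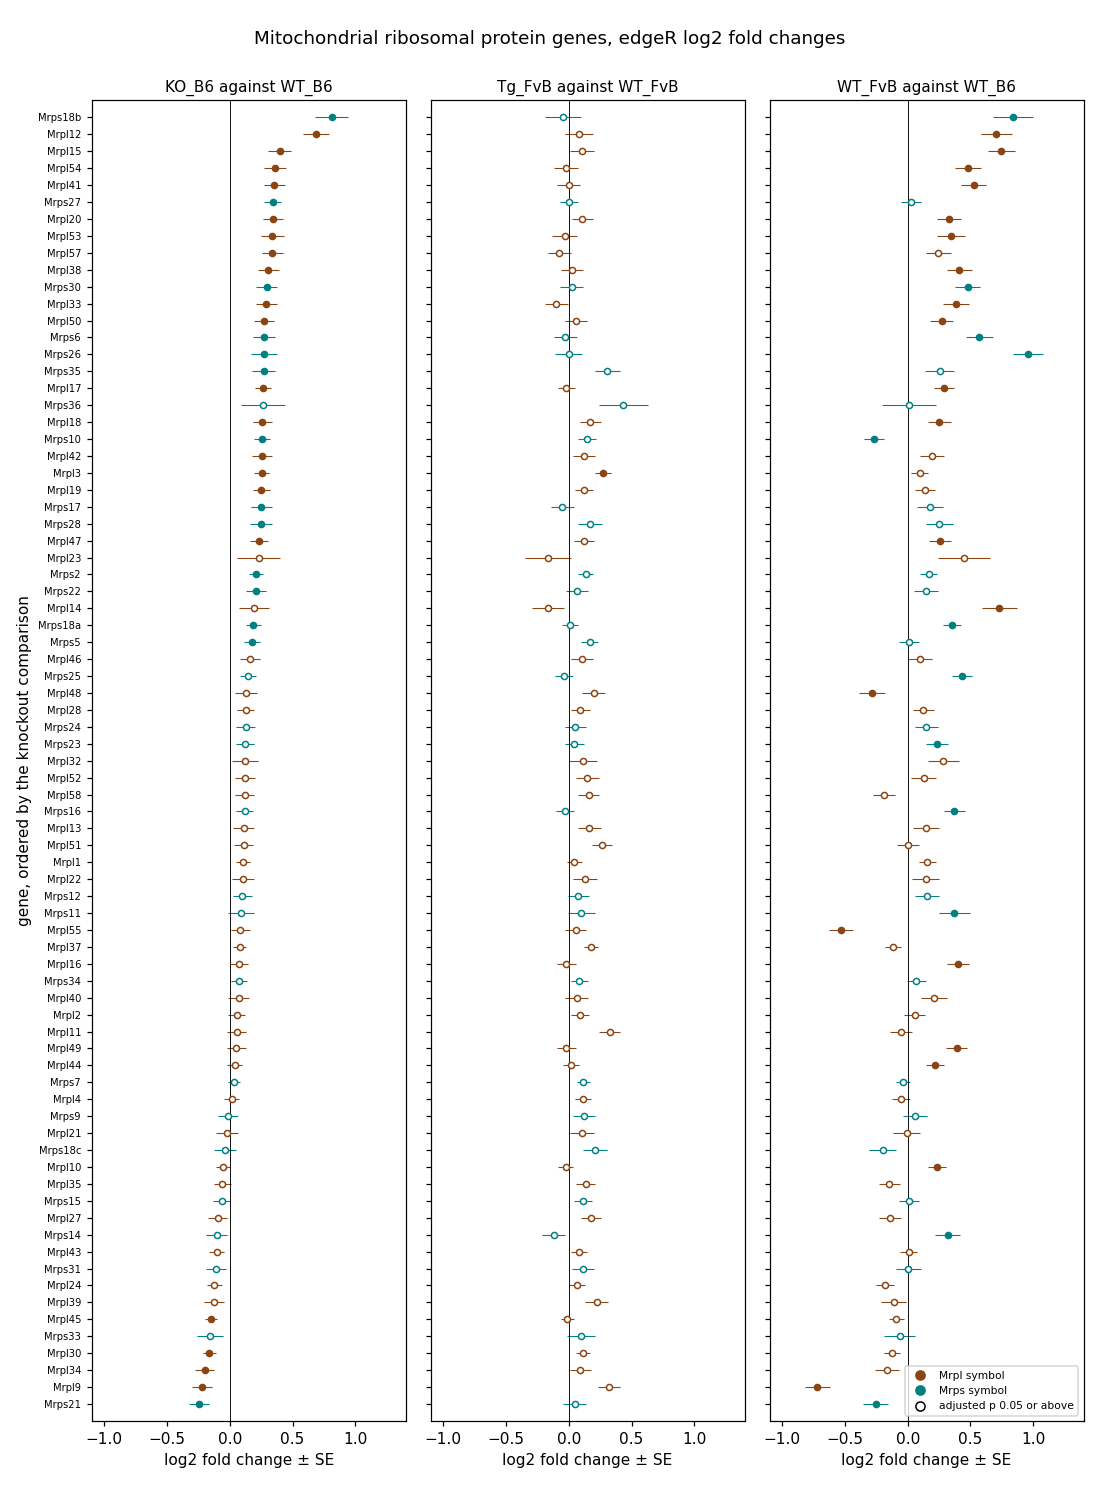
Log2 fold change ± SE (x axis) of each tested member (y axis, ordered by the knockout comparison) in the 3 comparisons; brown marks Mrpl and green Mrps symbols, and open points have an adjusted p of 0.05 or above. Mrps18b and Mrpl12 stand apart at the top of the knockout comparison, Mrpl3 is the 1 filled point in the transgene comparison, and the right-hand comparison shares its WT_B6 libraries with the left-hand one.

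The count of calls depended on which libraries were treated as separate. With the close libraries summed, 0 members were called by edgeR (2 had an unadjusted p under 0.05, and 5 of 15958 genes, 0.0313%, were called in all), although all 34 kept their direction. Litter as a covariate left 14 higher and 0 lower (34.5% of all genes called). That fit compares KO_B6 with WT_B6 within litters 843 and 929, so WT_B6 replicate 1 adds nothing to it. Leaving out WT_B6 replicate 1, 2 or 4 or KO_B6 replicate 2 left 19, 16, 19 and 18 higher. There was 1 lower without WT_B6 replicate 1, and there were 3 without WT_B6 replicate 2. In these 4 settings 5747, 5550, 5607 and 6108 genes were called in all, against 6982 with every library. Without Tg_FvB replicates 5 and 6, which enter the shared estimate of spread, 8 were lower (53.1% of all genes called). Within litters, the mean log2 level of members was higher in KO_B6 by 0.10 in litter 843 and by 0.14 in litter 929. Each had 2 KO_B6 libraries and 1 WT_B6 library. The WT_B6 libraries of these litters were a close pair, as were KO_B6 replicate 2 (litter 843) and replicate 3 (litter 929). The litters may thus not be independent repeats.

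Mrps18b, 1 of 3 mammalian relatives of bacterial ribosomal protein S18, rose most. It was at 5.89, 6.42 and 6.96 CPM in WT_B6 and at 9.95, 12.75, 11.96 and 10.5 CPM in KO_B6. All 4 knockout libraries lay above all 3 wild-type libraries, with a log2 fold change of 0.81 ± 0.13 (1.75-fold, edgeR adjusted p 0.000242). The gene is at chr17:35910380-35916440 (-), overlaps the antisense gene Gm16279, and shares a stretch of 417 bases with the processed pseudogene Gm13552, so its counts are uncertain. Its paralog Mrps18a, which sits in the large subunit despite its symbol, was at 38.5, 40.7 and 41.5 CPM in WT_B6 and at 42.2, 47.8, 47.3 and 45.8 CPM in KO_B6. These groups did not overlap either, and Mrps18a rose by 0.19 ± 0.06 on the log2 scale (adjusted p 0.0201). Mrps18c, the paralog that takes the place of bacterial S18, ranged from 26.2 to 26.5 CPM in WT_B6 and from 24.1 to 27.2 CPM in KO_B6. Its groups overlapped, with a log2 fold change of -0.04 ± 0.09 (adjusted p 0.753).

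The large-subunit stalk, the mobile arm that recruits translation factors, held the largest rise among Mrpl genes. Mrpl12, the stalk protein that contacts those factors, was at 43.4, 46.0 and 47.0 CPM in WT_B6 and at 62.5, 79.3, 77.3 and 74.4 CPM in KO_B6. Every knockout library was above every wild-type library, and KO_B6 replicate 1 was the lowest of its group. The log2 fold change was 0.69 ± 0.10 (1.61-fold, edgeR adjusted p 0.000116). Within litters the difference was 0.61 in litter 843 and 0.69 in litter 929, which may not be independent repeats, as they hold close libraries. Mrpl12 lies at chr11:120484637-120488754 (+) and overlaps the long noncoding RNA Gm16755 on the other strand.

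Of the 5 stalk-region genes, 3 rose and 0 fell, where 24.8% of all genes were called higher and 20.9% lower, and the median log2 fold change was 0.34 (all genes 0.02). Mrpl54, a protein specific to mitochondria, went from 21.8, 20.7 and 22.6 CPM in WT_B6 to 26.15, 29.02, 30.3 and 26.0 CPM in KO_B6, with no overlap (0.36 ± 0.09, adjusted p 0.00373). Mrpl53, also specific to mitochondria, was at 25.2 to 27.3 CPM in WT_B6 and at 27.7 to 36.0 CPM in KO_B6 (0.34 ± 0.09, adjusted p 0.00844). Of the conserved proteins at the base of the stalk, Mrpl10, which anchors Mrpl12, had a log2 fold change of -0.05 ± 0.06 and Mrpl11 of 0.05 ± 0.07, and neither was called (edgeR adjusted p 0.464 and 0.586).

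Mrpl15 and Mrpl41 completed the 5 largest rises. Mrpl15, a conserved large-subunit protein (chr1:4773198-4785750, -), was at 53.1, 55.0 and 52.6 CPM in WT_B6 and at 63.4, 74.9, 74.7 and 69.2 CPM in KO_B6. The groups were separate, with a log2 fold change of 0.40 ± 0.09 (edgeR adjusted p 0.00244). Mrpl41, found only in mitochondrial ribosomes (chr2:24972470-24975098, -), was at 28.2, 26.9 and 28.4 CPM in WT_B6 and at 33.7, 36.3, 36.5 and 35.8 CPM in KO_B6. Its knockout libraries again all lay above the wild types (0.35 ± 0.09, adjusted p 0.00365).

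**Figure D3:**
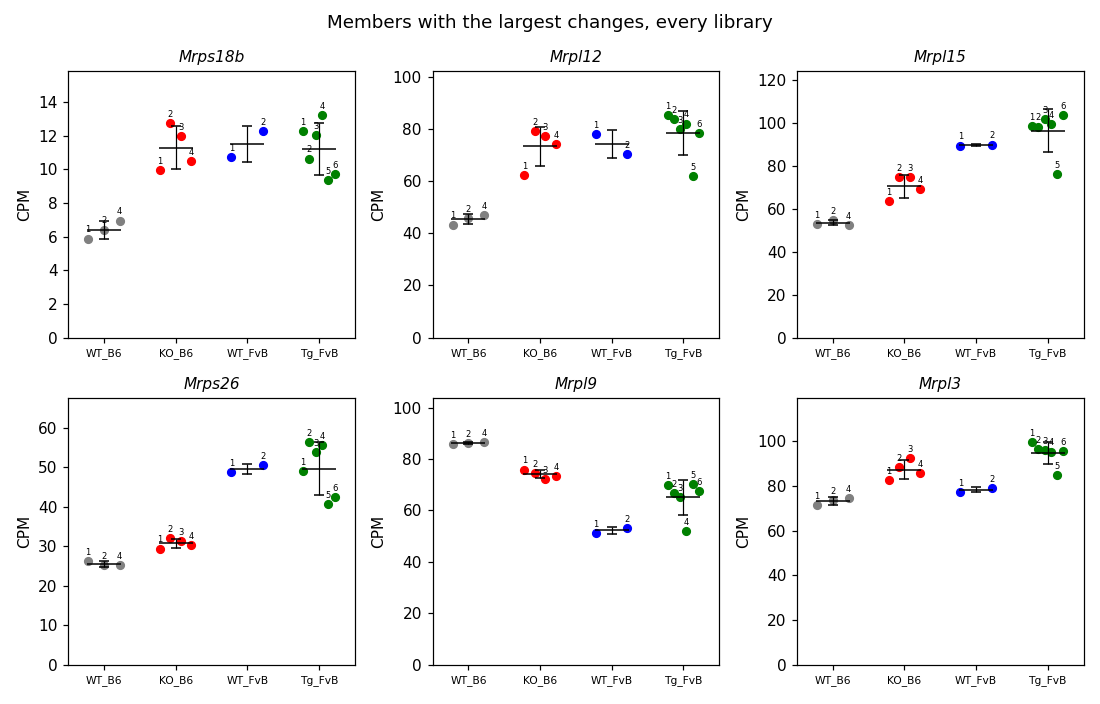
CPM (y axis, from 0) of 6 members in every library, by group (x axis); points are libraries with their replicate numbers, and the lines are the mean ± SD. Mrps18b and Mrpl12 in KO_B6 lie above WT_B6 and near WT_FvB, Mrpl9 is highest in WT_B6, and Tg_FvB replicate 5 is the lowest of its group for Mrpl12, Mrpl15 and Mrpl3.

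By position and origin, rises outnumbered falls in each group of subunits, and the counts are to be read beside the 24.8% of all genes called higher and the 20.9% called lower. The share called higher was 33.3% in the central protuberance and around the exit tunnel and 31.0% among conserved large-subunit proteins, which is near that of all genes. Of the 6 central protuberance proteins, 2 rose, Mrpl18 (0.26) and Mrpl38 (0.31), and 0 fell. Around the exit tunnel, where the new chain leaves, Mrpl17 (0.26) and Mrpl47 (0.23) rose and Mrpl45 fell, out of 6. Large-subunit proteins with bacterial counterparts had 9 rises and 3 falls among 29, and those specific to mitochondria 9 rises and 1 fall among 21. Small-subunit proteins with bacterial counterparts had 6 rises and 1 fall among 16, and those specific to mitochondria, such as Mrps27 (0.34), Mrps26 (0.27) and Mrps35 (0.27), had 5 rises and 0 falls among 10. Mrps36, which despite its symbol belongs to the oxoglutarate dehydrogenase complex, was at 8.28 to 10.9 CPM in WT_B6 and at 9.99 to 12.8 CPM in KO_B6, which overlap, with a log2 fold change of 0.26 ± 0.18 (edgeR adjusted p 0.237) and near-identical pseudogenes.

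The 5 falls were each below 1.2-fold. Mrps21, a conserved small-subunit protein, was at 44.8, 41.2 and 42.1 CPM in WT_B6 and at 33.6, 36.0, 36.3 and 38.0 CPM in KO_B6, a log2 fold change of -0.25 ± 0.08 (edgeR adjusted p 0.0232). Mrpl9, a conserved large-subunit protein whose exons overlap Oaz3 on the other strand, was at 85.7, 86.3 and 86.4 CPM against 75.9, 74.4, 72.3 and 73.3 CPM (-0.22 ± 0.08, adjusted p 0.0329). For both, all knockout libraries were below all wild-type libraries. Mrpl34, the large-subunit protein with a very short bacterial counterpart, was at 38.9, 37.9 and 36.6 CPM against 27.9, 35.2, 32.5 and 35.8 CPM (-0.20 ± 0.08, adjusted p 0.0435). Mrpl30 was at 65.1 to 66.2 CPM in WT_B6 and 57.9 to 60.2 CPM in KO_B6 (-0.16 ± 0.05, adjusted p 0.0164). Mrpl45, which holds the ribosome at the inner membrane, was at 85.0 to 88.4 CPM in WT_B6 and 76.5 to 81.0 CPM in KO_B6 (-0.15 ± 0.05, adjusted p 0.0185). None of these last 3 overlapped between the groups. With litter as a covariate all 5 calls were lost (edgeR adjusted p 0.0699 to 0.162). Without WT_B6 replicate 1, those of Mrps21, Mrpl9, Mrpl34 and Mrpl45 were lost (0.0720 to 0.127). Without WT_B6 replicate 2, those of Mrpl9 (0.0522) and Mrpl34 (0.0649) were lost. That of Mrpl34 was also lost without the low-count filter (0.0522) and with only the groups compared (0.0599).

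Over all members, 33 had every KO_B6 library above every WT_B6 library and 10 had every one below. The same held for 29.3% and 27% of all genes tested, which is 42.9% and 13.0% of members against those shares.

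The stretches upstream of 3 members that moved in KO_B6 are shown because promoters of this gene family are known to hold sites for NRF1, ETS-family factors and YY1. RefSeq promoter windows (GRCm38.p6, the assembly of mm10) were found for 69 of the 78 members, and the whole 250 bases before the start were searched on both strands in each. Printed is the longest stretch of the window that no annotated exon covers. Capitals mark the ETS core. The first is Mrpl12, at chr11:120484387-120484612 (+), which rose and holds none of the 3 cores in the 226 bases printed. The second is Mrpl17, at chr7:105811100-105811337 (-), which rose, and the last is Mrpl34, at chr8:71464676-71464925 (+), which fell.
Mrpl12: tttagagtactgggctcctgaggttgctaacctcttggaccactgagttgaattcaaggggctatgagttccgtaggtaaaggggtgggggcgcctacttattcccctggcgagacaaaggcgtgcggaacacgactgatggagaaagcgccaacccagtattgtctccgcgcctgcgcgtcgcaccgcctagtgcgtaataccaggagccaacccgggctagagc
Mrpl17: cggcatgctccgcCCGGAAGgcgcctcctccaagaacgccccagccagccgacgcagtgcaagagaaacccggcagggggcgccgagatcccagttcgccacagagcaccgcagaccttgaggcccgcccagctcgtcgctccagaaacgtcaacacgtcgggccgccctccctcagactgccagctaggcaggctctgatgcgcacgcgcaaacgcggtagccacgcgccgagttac
Mrpl34: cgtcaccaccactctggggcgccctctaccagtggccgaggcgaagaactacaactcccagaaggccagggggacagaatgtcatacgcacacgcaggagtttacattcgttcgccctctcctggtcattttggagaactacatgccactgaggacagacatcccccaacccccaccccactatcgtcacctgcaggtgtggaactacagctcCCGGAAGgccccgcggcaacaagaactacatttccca

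The NRF1 core GCATGCGC, whose reverse strand reads GCGCATGC, was in 8 of 69 member windows (11.6%), against 4.82% of tested genes and 2.56% of all genes with a window. The ETS core CCGGAAG was in 18 of 69 (26.1%), against 14.5% and 7.83%, counting its reverse complement as well. The YY1 core AAGATGGC (GCCATCTT on the other strand) was in 4 of 69 (5.80%), against 2.25% and 1.83%. A window can hold more than 1 core. Among the 23 members that rose in KO_B6 and had a window, 3 held the NRF1 core, 8 the ETS core and 0 the YY1 core, against 5, 10 and 4 of the 46 other members. As the sequences of Mrpl17 and Mrpl34 show, an ETS core was present both in a member that rose and in a member that fell. A match is a string of letters and was not tested for binding.

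With Kat6b overexpressed, members also lay above 0 more often than below, but 1 passed the test. Mrpl3, a conserved protein near the site where amino acids are joined (chr9:105053268-105077466, +), was at 77.5 and 79.2 CPM in WT_FvB. In Tg_FvB it ranged from 84.9 to 99.5 CPM with a median of 95.8. All 6 transgenic libraries were above both wild types, with a log2 fold change of 0.27 ± 0.06 (edgeR adjusted p 0.0423). Its exons overlap 2 noncoding entries, Gm38077 and Gm47106. That is 1 member higher (1 of 77) and 0 lower, against 0.688% and 1.17% of all genes tested (1.85% in either direction), and 13 members had an unadjusted p under 0.05. The call was lost with the close libraries summed (adjusted p 0.9995, 0 genes called in all), with litter as a covariate (0.153, 0.0655% of all genes called), without WT_FvB replicate 1 (0.477) or 2 (0.367), and without Tg_FvB replicate 1, 2, 3 or 6 (0.0579 to 0.0874). Litter 873 holds no wild type, so with litter as a covariate the transgene effect rests on litter 844, with Tg_FvB replicates 1 and 2. Without Tg_FvB replicates 5 and 6, whose column headings say wild type, 4 members were called higher (4.19% of all genes in either direction). As many were called without replicate 4 alone (1763 genes called in all) or replicate 5 alone (606 genes), and DESeq2 called 3 (4.73%).

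Apart from Mrpl3, edgeR with all libraries called no member in Tg_FvB. The median log2 fold change was 0.09 (all genes 0.01), 57 of 77 lay above 0 (74.0%, against 53.1% of all genes), and 71 of 77 stayed within 1.2-fold (92.2%, against 70.6% of all genes). Mrpl11, at the base of the stalk, was at 42.4 and 43.8 CPM in WT_FvB and at 49.7 to 63.4 CPM (median 53.2) in Tg_FvB, without overlap, yet it missed the threshold (0.33 ± 0.08, edgeR adjusted p 0.0563). Mrps36 had the largest value at 0.44 ± 0.19 (adjusted p 0.252), with 8.37 and 10.3 CPM in WT_FvB against 9.42 to 15.7 CPM in Tg_FvB, so the groups overlapped. Without overlap between the groups, 13 members were higher and 2 lower, which is 16.9% and 2.6% of members, against 7.97% and 8.01% of all genes. Mrpl12 (0.08 ± 0.11) and Mrps18b (-0.04 ± 0.14), the members that rose most in the knockout, were not called (adjusted p 0.718 and 0.894).

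Between the wild types of the 2 backgrounds, most called members were higher on the mixed background. WT_FvB had 27 members higher and 5 lower than WT_B6 (35.1% and 6.49%), against 25.4% and 23.5% of all genes (48.9% in either direction). The median log2 difference was 0.15 (all genes 0.02), with 57 of 77 above 0 (74.0%, against 51.2% of all genes) and 49 within 1.2-fold (63.6%, against 38.8% of all genes). An effect of strain on RNA level and an effect of strain sequence on the counting of reads cannot be told apart. With the close libraries summed 0 members were called (11 at an unadjusted p under 0.05), and litter as a covariate left 12 higher and 2 lower (25.6% of all genes called). Leaving out WT_FvB replicate 1 or 2 left 17 and 16 higher and 2 lower each, without WT_B6 replicate 2 there were 3 lower, and without Tg_FvB replicates 5 and 6 there were 9 (54.9% of all genes called). Litter 844 is the only litter label that holds libraries of both wild types, with WT_B6 replicate 1 beside the WT_FvB pair. For this comparison the fit with litter as a covariate therefore rests on WT_B6 replicate 1 alone in WT_B6. That library carries the same embryo number as WT_FvB replicate 2. No other comparison of the wild types within a litter was made.

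Mrps26, a small-subunit protein specific to mitochondria, differed most between the wild types. It was at 26.3, 25.1 and 25.1 CPM in WT_B6 and at 48.7 and 50.4 CPM in WT_FvB, a log2 difference of 0.96 ± 0.12 (edgeR adjusted p 6.34e-05). The groups were far apart, and KO_B6 lay between them at 29.4 to 32.1 CPM. It overlaps an antisense gene and shares short near-identical stretches with 4 other genes. Mrps18b (10.7 and 12.3 CPM in WT_FvB, 0.84 ± 0.16), Mrpl15 (89.5 and 90.0 CPM, 0.75 ± 0.11) and Mrpl12 (78.0 and 70.5 CPM, 0.71 ± 0.12) were higher too. So was Mrpl14, a conserved large-subunit protein, at 15.9 to 19.8 CPM in WT_B6 and 29.4 and 29.9 CPM in WT_FvB (0.73 ± 0.14). None of these 4 overlapped between the wild types.

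Members lower in WT_FvB were led by Mrpl9, at 51.3 and 53.3 CPM against 85.7 to 86.4 CPM in WT_B6 (log2 difference -0.72 ± 0.10, edgeR adjusted p 9.69e-05). Mrpl55, a large-subunit protein with a bacterial counterpart, was at 15.6 and 15.7 CPM against 22.4 to 23.1 CPM (-0.53 ± 0.10, adjusted p 0.000489). Mrpl48 of the central protuberance (-0.28 ± 0.10), Mrps10 (-0.27 ± 0.08) and Mrps21 (-0.26 ± 0.10) were lower by less. Mrps10 was at 21.2 and 21.0 CPM in WT_FvB, 23.5 to 26.7 CPM in WT_B6 and 29.4 to 31.4 CPM in KO_B6, so that it was called lower in WT_FvB and higher in KO_B6 against the same WT_B6 libraries. Its fall in WT_FvB was lost with litter as a covariate (-0.16, edgeR adjusted p 0.305), with the close libraries summed (0.272) and without WT_FvB replicate 1 (0.0533) or 2 (0.0580). Mrpl48 was at 22.01 and 21.97 CPM in WT_FvB and at 25.5 to 28.0 CPM in WT_B6, and Mrps21 at 34.2 and 37.3 CPM against 41.2 to 44.8 CPM. Neither overlapped, but both calls were lost with litter as a covariate (adjusted p 0.109 and 0.0916), with the close libraries summed (0.391 and 0.413), without WT_B6 replicate 1 (0.0964 and 0.121) or 2 (0.0649 and 0.0541), and without WT_FvB replicate 1 (0.118 and 0.248) or 2 (0.116 and 0.0659), and that of Mrps21 also without WT_B6 replicate 4 (0.0688). Mrpl48 and Mrps10 have near-identical processed pseudogenes. Over all members, 47 were higher and 15 lower in WT_FvB without overlap (61.0% and 19.5%, against 40.1% and 38.2% of all genes).

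The knockout and transgene effects were compared directly in the same model, as the log2 fold change in KO_B6 less that in Tg_FvB. The difference was above 0 and called for 9 members and below 0 and called for 3 (11.7% and 3.90%), against 19.5% and 17.8% of all genes (37.3% in either direction), so the share of members was below that of all genes. Mrps18b (0.85 ± 0.19, edgeR adjusted p 0.00361) and Mrpl12 (0.61 ± 0.15, adjusted p 0.00571) differed most. The other 7 were Mrpl57 (0.41), Mrpl33 (0.39), Mrpl54 (0.38), Mrpl53 (0.37), Mrpl41 (0.36), Mrps27 (0.34) and Mrpl17 (0.28). Each of the 9 rose in KO_B6 and had a transgene log2 fold change between -0.10 and 0.08.

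For 3 members the difference was below 0 and called. Mrpl9 fell by 0.22 in KO_B6 and, without being called, had a log2 fold change of 0.32 ± 0.09 in Tg_FvB (51.9 to 70.2 CPM with a median of 67.0, against 51.3 and 53.3 CPM in WT_FvB), a difference of -0.54 ± 0.12 (edgeR adjusted p 0.00296). Tg_FvB replicate 4, at 51.9 CPM, was the 1 transgenic library inside the wild-type range. Mrpl30 differed by -0.28 ± 0.08 (adjusted p 0.0108) and Mrpl39, specific to mitochondria, by -0.35 ± 0.12 (adjusted p 0.0376), and neither was called in the transgene comparison. With the close libraries summed 0 differences were called, and with litter as a covariate 1 was, below 0 (18.8% of all genes). Leaving out WT_B6 replicate 1 or 2, KO_B6 replicate 2 or 3, or either WT_FvB replicate left 3 to 5 called above 0. Without Tg_FvB replicate 4, 5 or 6 there were 6, 7 and 5 below 0, without replicates 5 and 6 together 7 (39.3% of all genes in either direction), and without WT_FvB replicate 2 there was 1. DESeq2 called 6 below 0 (39.5% of all genes in either direction).

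Rises outnumbered falls in both subunits. In KO_B6 16 of 48 large-subunit genes rose and 4 fell, and 13 of 29 small-subunit genes rose and 1 fell, with median log2 fold changes of 0.11 and 0.14. That is 33.3% and 44.8% higher and 8.33% and 3.45% lower, against 24.8% and 20.9% of all genes. With litter as a covariate 11 large-subunit and 3 small-subunit genes rose and 0 fell. In WT_FvB against WT_B6 these counts were 17 and 3 of 48, and 10 and 2 of 29, against 25.4% higher and 23.5% lower of all genes, with medians of 0.14 and 0.15. With litter as a covariate they were 5 and 2, and 7 and 0. In Tg_FvB the medians were 0.10 and 0.08. Whether the subunits differ in their response was not tested, since genes are not replicates.

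Averaged over its genes, the mean log2 CPM of the large subunit was 5.29 ± 0.03 (SD) in WT_B6, 5.41 ± 0.06 in KO_B6, 5.42 ± 0.0004 in WT_FvB and 5.51 ± 0.07 in Tg_FvB. For the small subunit it was 4.99 ± 0.02, 5.13 ± 0.05, 5.18 ± 0.02 and 5.26 ± 0.07. For both subunits, every KO_B6 library was above every WT_B6 library, while Tg_FvB overlapped WT_FvB, as replicate 5 was lower than both wild types.

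The gap between the subunits, large less small in mean log2 CPM, was 0.301, 0.306 and 0.284 in WT_B6 and 0.256, 0.280, 0.301 and 0.278 in KO_B6. The groups overlapped, and the mean gap was 0.02 narrower in KO_B6. It was 0.256 and 0.224 in WT_FvB, both below every WT_B6 library, and 0.225 to 0.280 in Tg_FvB with a median of 0.245, around the WT_FvB values. The direction in KO_B6 depended on the measure: with Mrps30 and Mrps18a counted in the large subunit, where they sit in the structure, and Mrps36 left out, the change was -0.0010, and with the median over genes or with summed counts per kilobase it was 0.017 and 0.026. In Tg_FvB the change of 0.0070 became -0.0042 without replicates 5 and 6 and -0.0091 without WT_FvB replicate 2. The WT_FvB gap was narrower than the WT_B6 gap under all 4 measures, by 0.035 to 0.057.

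**Figure D4:**
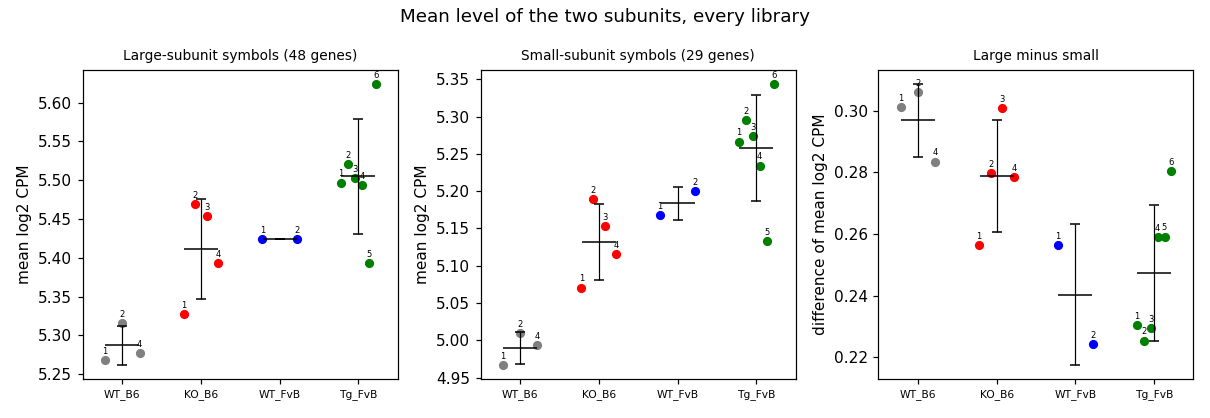
Mean log2 CPM of the 48 tested large-subunit genes, of the 29 small-subunit genes, and their difference (y axes) in every library by group (x axis); points are libraries with replicate numbers and lines are mean ± SD. Both subunits are lowest in WT_B6, and the difference overlaps between WT_B6 and KO_B6.

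Together the members took 0.307% to 0.318% of the counts in WT_B6, 0.314% to 0.350% in KO_B6, 0.354% and 0.356% in WT_FvB and 0.342% to 0.390% in Tg_FvB. KO_B6 replicate 1 was the knockout library nearest to WT_B6 (0.314%), inside the wild-type range. In the transgenic group, replicate 5 was lowest and replicate 6 highest.

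The RNAs of the same ribosome were lower in the knockout cells. The small-subunit rRNA mt-Rnr1 was at 382, 328 and 367 CPM in WT_B6 and at 263, 118, 126 and 172 CPM in KO_B6. All knockout libraries were below all wild types, with a log2 fold change of -1.08 ± 0.23 (edgeR adjusted p 0.00177). The large-subunit rRNA mt-Rnr2 was at 555, 508 and 560 CPM against 432, 227, 239 and 348 CPM (-0.80 ± 0.19, adjusted p 0.00315), again without overlap. WT_FvB was also below WT_B6, at 142 and 137 CPM for mt-Rnr1 and 275 and 247 CPM for mt-Rnr2. In Tg_FvB mt-Rnr1 ranged from 163 to 272 CPM (median 194) and mt-Rnr2 from 289 to 430 CPM (median 322), above both wild types in every library, but neither was called (adjusted p 0.255 and 0.355). With the close libraries summed, the knockout differences were -0.98 and -0.72, with adjusted p of 0.193 and 0.218.

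These rRNA values have a narrow meaning. The TruSeq RNA kit is known to select polyadenylated RNA, and mitochondrial rRNA carries short tails, so what was counted is the part that was captured. Copies of mitochondrial DNA in the nuclear genome share sequence with both genes. The genes were added to the lists after the files had been seen.

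**Figure D5:**
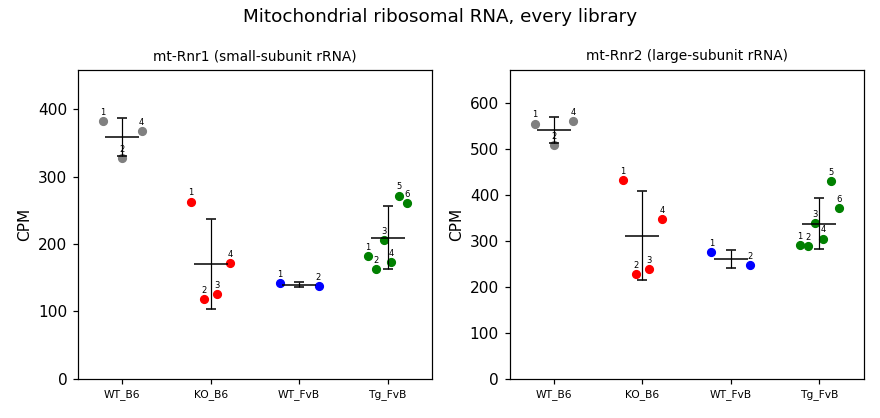
CPM (y axis, from 0) of the mitochondrial rRNAs mt-Rnr1 and mt-Rnr2 in every library by group (x axis); points are libraries with replicate numbers and lines are mean ± SD. WT_B6 is highest for both, at 328 to 382 and 508 to 560 CPM, and KO_B6 replicate 1 is the highest knockout library.

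The 13 mitochondrial mRNAs, which this ribosome translates, were not called by edgeR in any comparison (unadjusted p under 0.05 for 0 in KO_B6, 0 in Tg_FvB and 2 between the wild types), with a median log2 fold change of 0.02 in KO_B6 and 0.41 in Tg_FvB. COX1, a core subunit of cytochrome oxidase, was at 10757 to 11242 CPM in WT_B6 and at 19794, 6723, 6610 and 9792 CPM in KO_B6. The first knockout replicate was above and the other 3 below the wild types, and the sum over the 13 mRNAs showed the same, at 6.83% of counts in that library against 2.48% to 3.66% in the others and 3.69% to 3.81% in WT_B6. That library was also the lowest of its group in the mean of the mitochondrial ribosomal proteins (5.23 log2 CPM), and without it 32 members were called in KO_B6.

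Among genes that build and serve the mitochondrial ribosome, the share called higher in KO_B6 ran from 22.2% of assembly factors, below the 24.8% of all genes, to 58.3% of biogenesis regulators, and the share called lower was at most 3 of 20, among tRNA-charging enzymes, against 20.9% of all genes. These lists were written with earlier results of the same libraries known, so the counts describe them and test nothing. Their median log2 fold changes in KO_B6 were 0.28 for the subunits named otherwise, 0.05 for assembly factors, 0.13 for tRNA-charging enzymes, 0.19 for mitochondrial DNA and RNA handling and 0.27 for biogenesis regulators, while 8 of 15 translation factors lay below 0. Of 5 subunits named otherwise, 2 rose and 0 fell: Ptcd3, the small-subunit protein also called Mrps39, from 55.3, 61.0 and 62.7 to 82.5, 86.1, 90.1 and 88.3 CPM (log2 fold change 0.54 ± 0.08, edgeR adjusted p 8.19e-05), and Gadd45gip1, a large-subunit protein (0.28 ± 0.08). Of 27 assembly factors 6 rose and 3 fell, among them the rRNA methyltransferases Mrm1 (0.65 ± 0.14) and Mrm3 (0.62 ± 0.15), the rRNA-binding protein Fastkd2 (0.56 ± 0.08), and Mterf4, which works with an rRNA methyltransferase (-0.50 ± 0.10). Of 15 translation factors 6 rose and 1 fell, with Pdf, which removes the formyl group from new chains, at 0.52 ± 0.09 and the elongation factor Tsfm at 0.47 ± 0.09.

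Of 20 mitochondrial tRNA-charging enzymes 9 rose and 3 fell. Yars2, for tyrosine, was at 20.9, 22.2 and 22.5 CPM in WT_B6 and at 34.5, 44.3, 44.6 and 41.1 CPM in KO_B6, well apart (0.91 ± 0.12, edgeR adjusted p 3.89e-05), and Ears2, for glutamate, changed alike (0.90 ± 0.13, adjusted p 0.000117). Of 20 genes for copying and transcribing mitochondrial DNA and processing its RNA, 9 rose and 1 fell, led by the DNA polymerase Polg (0.74 ± 0.10) and the RNA-degrading Pnpt1 (0.61 ± 0.06). Of 12 regulators of mitochondrial biogenesis 7 rose and 1 fell. The coactivator Pprc1 went from 46.8 to 52.0 CPM in WT_B6 to 101 to 119 CPM in KO_B6 (1.15 ± 0.14, adjusted p 3.25e-05), and Myc from 57.7 to 61.9 CPM to 127 to 134 CPM (1.11 ± 0.09, adjusted p 1.79e-06).

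Few nuclear genes of the respiratory chain were called in KO_B6, where 24.8% of all genes were called higher and 20.9% lower. In complex I, 2 of 36 rose and 4 fell in KO_B6, with a median log2 fold change of -0.05, in complexes II and IV edgeR called none of 4 and none of 10 (1 each at an unadjusted p under 0.05), and in complexes III and V 1 of 8 rose and 1 of 15 rose with 1 fall. In Tg_FvB edgeR called none of the genes in these lists and 1.85% of all genes. All 36 complex I genes lay above 0 there (median 0.16, and 11 with an unadjusted p under 0.05). So did 4 of 4 in complex II, 8 of 8 in III, 9 of 10 in IV and 14 of 15 in V, against 53.1% of all genes. Whether the ribosomal and respiratory genes differ in response was not tested.

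Marker genes moved with the groups as well, and their counts are to be read beside the shares of all genes. In KO_B6, 24.8% of all genes were called higher and 20.9% lower. These shares were 0.688% and 1.17% in Tg_FvB, and 25.4% and 23.5% in WT_FvB against WT_B6. In KO_B6, 4 of 8 neural stem cell markers fell and 1 rose, and 5 of 6 astrocyte markers fell; in Tg_FvB 3 of 6 astrocyte markers fell. Between the wild types, 5 of 8 neural stem cell markers were lower and 5 of 6 astrocyte markers higher in WT_FvB. Among 8 neuron markers, 1 rose and 2 fell in KO_B6, 1 rose in Tg_FvB, and 1 was higher and 4 lower in WT_FvB. Among 6 oligodendrocyte markers, 1 rose and 2 fell in KO_B6, 1 rose in Tg_FvB, and 1 was higher and 3 lower in WT_FvB. The summed level of the neural stem cell and astrocyte markers was 6882 to 6921 CPM (neural stem) and 2322 to 2336 CPM (astrocyte) in WT_B6, 5683 to 6898 and 1854 to 2282 CPM in KO_B6, 4866 to 4974 and 2975 to 3071 CPM in WT_FvB, and 4769 to 7608 and 2607 to 2887 CPM in Tg_FvB. Neuron markers summed to 879 to 1168 CPM and oligodendrocyte markers to 2031 to 3093 CPM over all libraries. None of the 6 microglia markers passed the filter. Microglia, endothelial, mesenchymal and erythroid markers were near 0, at sums of at most 0.456, 2.37, 4.67 and 1.06 CPM. The part of these shifts in the results for the ribosomal genes was not tested.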

How the data were processed

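Total RNA of 15 libraries was sequenced on a NextSeq500. The deposited files hold raw counts per gene, made by the authors with featureCounts after bcl2fastq on mm10, per the submitters' processing notes. Aligner, annotation, versions and strand setting: not given in the sources used here. Members that overlap another gene (33 of 78) or share a near-identical stretch of at least 66 bases at 98% identity with another transcript (18) therefore have uncertain counts. The deposited gene length served for levels per kilobase. The 917 entries without a name (0.450% to 0.545% of counts) were left out.

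All 15 libraries entered 1 edgeR 4.0.16 quasi-likelihood model (R 4.3.3) with 1 coefficient per group, TMM scaling and filterByExpr at a minimum count of 10, leaving 15261 of 26263 genes. P-values were adjusted by Benjamini-Hochberg over all of them, and a gene was called under 0.05. CPM are TMM-scaled, and log2 means use a prior count of 0.5. The model was tested on simulated data. DESeq2 1.42.0, other filters and scalings, litter, pairing by replicate number, summed libraries and leaving out libraries were alternatives. Whether replicate numbers pair the samples could not be decided, and the main model does not pair them. Groups follow the genotype and background fields. Promoters and coordinates are RefSeq's (GRCm38.p6), and overlaps are GENCODE M21's.

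The members and gene lists were chosen with earlier results of these data known. By rule, the members named first were the 5 largest rises and falls per comparison among called members, the 3 highest and lowest per kilobase, the S18 paralogs and Mrps36, with values per library, or for some only their range or fold change; and up to 3 called genes of each other list could be named; Mrpl10, Mrpl11 and Mrpl53 were added after their values were seen, as were COX1 and both mitochondrial rRNA genes. The limit of 1.2-fold, used only to describe the size of changes, was also set after the data were seen.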

Additional observations from a re-analysis of the deposited data

Results flagged for a closer look

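A library far from the rest of its group (Dixon's test at 95%) was found for 8 of the 70 gene and group combinations checked. The test's rate of about 1 in 20 by chance assumes independent libraries. Several libraries here were nearly alike and the combinations share libraries, so the 8 cannot be set against that rate. In Tg_FvB replicate 5, Mrpl12 was at 62.0 CPM (the other 5 at 78.4 to 85.4), Mrpl15 at 76.3 CPM (98.4 to 104), Mrpl3 at 84.9 CPM (95.4 to 99.5) and Mrps18a at 46.9 CPM (51.9 to 52.9). Kat6b in the same library was at 140 CPM, against 229 to 289 CPM in the other transgenic libraries. Mrpl52 stood high in Tg_FvB replicate 6 at 51.7 CPM (42.1 to 45.4). Mrpl9 stood low in Tg_FvB replicate 4 at 51.9 CPM (65.2 to 70.2). Mrpl45 stood high in KO_B6 replicate 2 at 81.0 CPM (76.5 to 77.0).

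The effect of the knockout differed from that of the transgene, by the interaction term of the edgeR model, for 12 members, for both mitochondrial rRNAs and for Kat6b. The differences in log2 fold change were 0.85 for Mrps18b, 0.61 for Mrpl12, 0.41 for Mrpl57, 0.39 for Mrpl33, 0.38 for Mrpl54, 0.37 for Mrpl53, 0.36 for Mrpl41, 0.34 for Mrps27 and 0.28 for Mrpl17. They were -0.54 for Mrpl9, -0.35 for Mrpl39 and -0.28 for Mrpl30. For mt-Rnr1 the difference was -1.66, for mt-Rnr2 -1.17 and for Kat6b -2.60.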

How the results depend on the processing

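Mrpl36 was the 1 member that the filter on low counts removed, and the calls of the others depended on which libraries were treated as separate. With near-identical libraries summed, 0 members were called higher or lower in any comparison, and the median log2 fold change of members was 0.062 in KO_B6 and 0.12 between the wild types. With litter as a covariate, 14 higher and 0 lower were called in KO_B6, 0 in Tg_FvB, and 0 and 1 for the difference of effects. Between the wild types, where that fit rests on WT_B6 replicate 1 alone in WT_B6, the median was 0.18. With the replicate block, which treats equal replicate numbers as a pairing, 6 were higher in Tg_FvB, where 1577 genes were called in all. Each block lies within 1 background, so this fit cannot compare the wild types. Its median of 0.29 between them, and its 0.019 for Mrps21, depend on how the blocks were coded. In their deviations from the group means, same-numbered libraries correlated at -0.0331 to 0.0634. The 2 WT_FvB libraries mirror each other in this measure and the WT_B6 libraries are nearly alike. The check could therefore hardly show a pairing, and whether the numbers pair the samples stays undecided. With only the groups compared, 0 were higher in Tg_FvB (10 genes called in all), and 41 higher and 15 lower between the wild types (10350 genes). Without Tg_FvB replicates 5 and 6, 8 were lower in KO_B6, 4 higher in Tg_FvB, 9 lower between the wild types and 7 below 0 for the difference. Of all genes, 53.1%, 4.19%, 54.9% and 39.3% were called in these comparisons, in either direction. DESeq2 gave 3 higher in Tg_FvB (4.73% of all genes called) and 6 below 0 for the difference (39.5%). A minimum count of 50 gave 6 below 0 (5574 genes called in all), and no filter gave 0 higher in Tg_FvB (258 genes). The gap of large less small changed in KO_B6 by -0.0010 with subunits by structure, 0.017 with the median and 0.026 with summed counts per kilobase, in Tg_FvB by 0.041 with the median and -0.0042 without replicates 5 and 6, and between the wild types by -0.035 by structure. Leaving out 1 library gave 16 to 26 higher and 1 to 6 lower in KO_B6 (median 0.069 to 0.14), 0 to 4 higher in Tg_FvB, 16 to 25 higher and 2 to 4 lower between the wild types, 3 to 12 above and 1 to 7 below 0 for the difference, and a gap change of -0.0091 to 0.023 in Tg_FvB. In KO_B6, 5550 to 7132 genes were called in all when 1 library was left out. The cause of these shifts was not tested, beyond the coding of the replicate block and fewer libraries or genes where the setting itself removes them. Every one of the 34 KO_B6 calls kept its direction under all alternatives run. The alternatives reuse the libraries in which these genes were called, so a kept direction is no separate support.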
